A study of Mus musculus with 9 samples.

Results

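The central pair is the pair of single microtubules that runs through the core of a motile cilium or flagellum, and this report follows the genes that build or carry it in mouse male germ cells. The genes were chosen by name as central pair components and partners: Spag6, Spag16, Spag17, Hydin, Spef1, Spef2 and Meig1. These 7 names matched 8 of the 24505 genes in the count table, because the mouse has both Spag6 and Spag6l, a near copy of it, and both were listed.

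Polyadenylated RNA was sequenced from 9 libraries of fluorescence-sorted testis cells, each preparation pooling at least 5 pups of a litter. The pups were Uchl1-eGfp mice, whose EGFP is under control of the promoter of Uchl1. The mice were of C57BL/6 origin and had been outcrossed to CD-1. All groups, the In/B cells included, received WIN 18,446, an inhibitor of retinoic acid (RA) synthesis, at 100 µg per g of body weight from P1, followed by 10 µl of RA at 10 µg/µl on P11. The 3 groups of 3 libraries were In/B, labelled as type B spermatogonia and taken at P17, and preleptotene (PL) spermatocytes taken at P19 either without further WIN 18,446 (RA-sufficient) or with the inhibitor continued (RA-deficient). No group was free of inhibitor and injected RA. Replicates came from separate cell preparations by the study's methods, but the labels do not tie them to litters, so p-values measure the spread between these libraries.

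The axoneme of a motile flagellum has a ring of doublet microtubules around the central pair, and projections from the central pair touch the radial spokes and help to set the beat. Mouse mutants of many of these genes have motility defects of cilia, of sperm or of both. In the testis the sperm axoneme is assembled in spermatids, well after the stages sorted here, while transcripts of many flagellar genes are known to appear earlier, in spermatocytes. Spag6, Spag16 and Spag17 encode interacting proteins of the central apparatus, HYDIN forms a large projection of it, SPEF1 binds and bundles microtubules, SPEF2 is needed for sperm tail development, and MEIG1 acts in the manchette, the microtubule sleeve that carries cargo to the growing tail.

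Promoters of these genes are shown because the RFX factors, regulators of many ciliary genes, bind a known DNA motif, the X-box. The windows run from 250 bases before to 50 after the transcript start in RefSeq (build GRCm38.p6), and all 8 genes matched, with 10 windows. An RFX core motif, meaning GTTGCC or its variants with GTTGCT or with GTTACC on either strand, was present in 8 of the 10 windows, with at least 1 for each of the 8 genes, against 30.2% of all 32851 promoter windows of that length. The X-box, searched as the inverted repeat of GTTNC and GNAAC around a gap of 4 bases, overlaps the core motif and was found in the windows of Hydin and Spag16 and in 1.0% of all windows. In the sequences below, capitals mark the core motifs and the X-box, and the start base is position 0. Hydin and Spag16 carry the X-box, from -21 to -8 as GTTGCTGTGGCAAC in Hydin and from -103 to -90 as GTTGCCGTAGTAAC in Spag16. Meig1 and Spag17 are shown beside them because they hold core motifs without the inverted repeat, and because their transcripts, with those of Spag6l, differed most between the RA-deficient libraries. The other Meig1 windows, with start bases at chr2:3422648 and chr2:3418597, held no core motif and are not printed.
Hydin, chr8:110266727-110267026, plus strand: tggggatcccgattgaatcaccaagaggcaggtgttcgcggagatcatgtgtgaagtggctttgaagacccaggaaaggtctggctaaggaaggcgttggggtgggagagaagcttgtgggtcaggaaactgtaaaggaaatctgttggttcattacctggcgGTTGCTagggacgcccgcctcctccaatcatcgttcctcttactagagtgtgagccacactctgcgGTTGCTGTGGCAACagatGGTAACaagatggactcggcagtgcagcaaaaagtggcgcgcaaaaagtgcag
Spag16, chr1:69826720-69827019, plus strand: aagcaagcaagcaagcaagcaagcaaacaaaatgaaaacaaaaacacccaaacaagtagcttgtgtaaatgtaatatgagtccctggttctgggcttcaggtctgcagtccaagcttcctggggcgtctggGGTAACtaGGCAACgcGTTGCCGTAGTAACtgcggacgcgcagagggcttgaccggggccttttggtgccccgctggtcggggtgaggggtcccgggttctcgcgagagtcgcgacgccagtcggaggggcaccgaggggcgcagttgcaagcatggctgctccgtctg
Meig1, chr2:3419080-3419379, minus strand: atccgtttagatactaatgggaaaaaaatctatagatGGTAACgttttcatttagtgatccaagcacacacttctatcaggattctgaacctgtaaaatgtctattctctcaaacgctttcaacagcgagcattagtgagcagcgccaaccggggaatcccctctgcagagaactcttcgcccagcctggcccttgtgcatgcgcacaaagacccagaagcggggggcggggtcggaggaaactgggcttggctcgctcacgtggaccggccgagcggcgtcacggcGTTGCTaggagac
Spag17, chr3:99885167-99885466, plus strand: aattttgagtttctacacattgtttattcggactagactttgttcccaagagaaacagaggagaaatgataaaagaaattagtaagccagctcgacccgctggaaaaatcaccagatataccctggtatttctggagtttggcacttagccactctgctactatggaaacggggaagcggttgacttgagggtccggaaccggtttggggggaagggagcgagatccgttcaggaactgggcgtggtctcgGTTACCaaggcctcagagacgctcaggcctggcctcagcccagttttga
The MYB motif TAACNG was in 5 of the 10 windows, in promoters of 5 of the 8 genes, and in 23.3% of all windows. Neither the STRA8 motif CNCCTCAG (7.9% of all windows) nor the RA receptor core AGGTCA (16.3%) was found in these windows on either strand. These are matches of letters and not measured binding.

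The genes lie on 6 chromosomes in mm9, the build to which the reads were aligned. Their positions in GENCODE M1, an annotation of that build, are chr1:69873562-70771706 for Spag16, chr3:99689329-99947245 for Spag17, chr8:112790877-113134153 for Hydin, chr2:130995997-131013018 for Spef1, chr15:9507948-9678623 for Spef2 and chr2:3326315-3339920 for Meig1. The remaining pair lies at chr2:18620628-18672040 and chr16:16753109-16829549. RefSeq calls the chromosome 2 gene Spag6 and the chromosome 16 gene Spag6l, GENCODE M1 uses Spag6 for the gene on chromosome 16, and each RefSeq entry gives the other's name as a synonym. Which of the pair each row of the table counts could therefore not be settled, and both are reported under the table's names. Their coding sequences were identical at 88.3% of aligned bases, and no stretch of 75 bases was shared exactly. On the opposite strand, exons of Spag17 share 820 bases with Wdr3 and 516 with B930086A06Rik, those of Spef1 share 256 with Gm14232 and 92 with Cdc25b, those of Hydin share 237 with Gm17466, and those of the chromosome 2 copy share 283 with a processed transcript. Whether strand was used in counting is not stated, so reads of such pairs may be mixed.

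Library totals ran from 12612959 to 27042274 counts, so that 3 counts corresponded to between 0.111 and 0.238 counts per 1000000 counts (CPM). Levels below are CPM after TMM scaling over the 9 libraries. The germ cell genes Ddx4, Dazl and Uchl1 summed to 4150 to 5235 CPM in In/B. Their sums were 1796 to 2234 CPM in RA-sufficient PL and 3500 to 4609 CPM in RA-deficient PL. A list of genes of preleptotene to zygotene cells summed to 2408 CPM or more in each PL library and at most 1050 CPM in In/B. In that list Rec8 and Stra8 overlapped between In/B and each PL group. Mean Rec8 was 70.7 CPM in In/B, 35.8 in RA-sufficient PL and 24.9 in RA-deficient PL. Stra8 is also in the list of differentiating spermatogonia, where it gave 444 CPM of the sum of RA-sufficient replicate 1. The library RA-deficient replicate 3 stood apart: its Pearson correlation with the other RA-deficient libraries on log2 CPM was 0.9425 and 0.9424, while those correlated at 0.9813. Its genes of differentiating spermatogonia summed to 332 CPM against 1661 and 1632 in replicates 1 and 2, 1158 to 1357 in In/B and 266.5 to 615 in RA-sufficient PL, and its pachytene genes to 1227 CPM against 570 and 653. Tests of the central pair genes that involve RA-deficient cells are therefore given with and without it.

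The central pair genes were low in In/B cells, higher in every RA-sufficient PL library, and, in RA-deficient PL, low in replicates 1 and 2 except for Spef2, with a part of them high in replicate 3. The 8 genes summed to 32.04, 60.45 and 60.53 CPM in In/B, to 705, 276 and 215.5 CPM in RA-sufficient PL, and to 31.6, 36.1 and 174.8 CPM in RA-deficient PL replicates 1 to 3. All 3 RA-sufficient sums lay above the other 6, and RA-deficient replicate 3 lay above In/B.

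**Figure D1:**
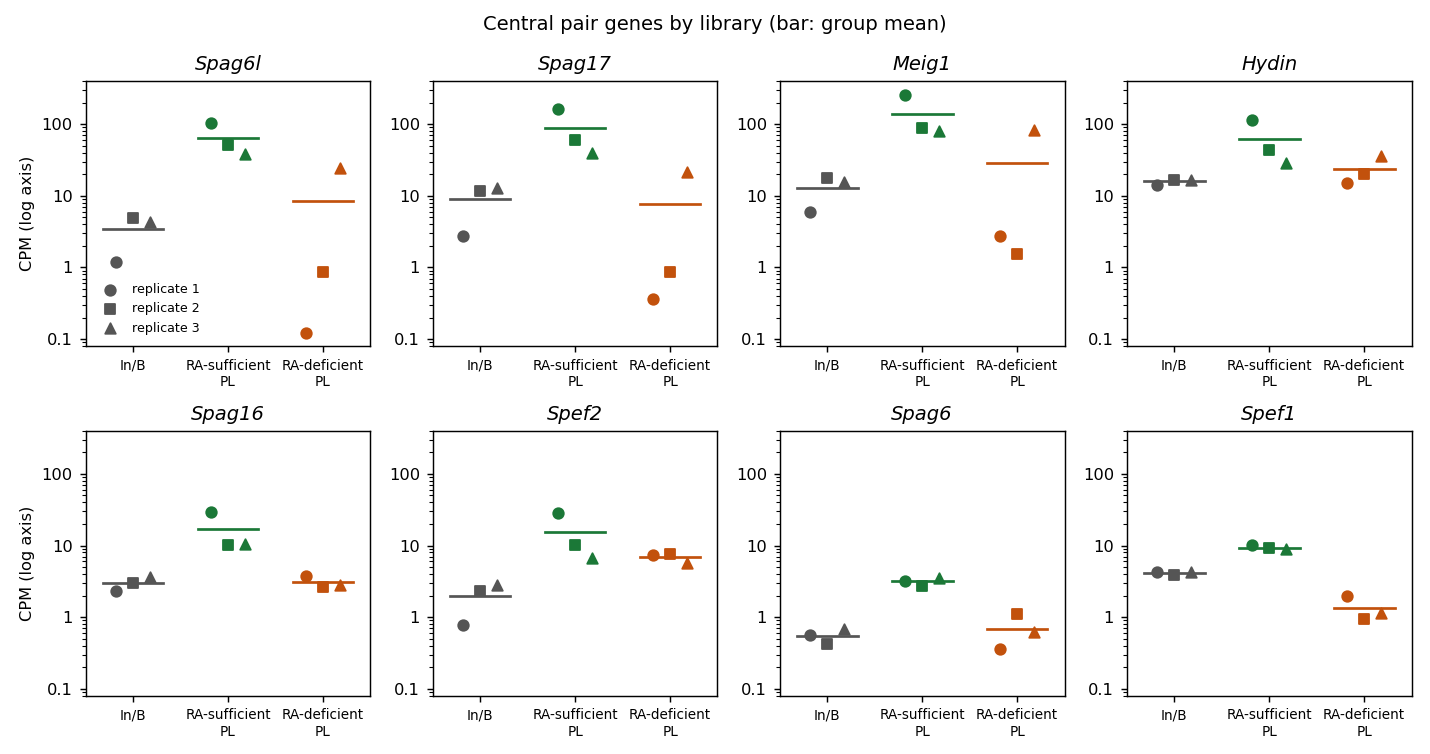
Level of each of the 8 central pair genes in the 9 libraries, in CPM on a common logarithmic axis; each point is a library and each line the mean of a group of 3. All 3 RA-sufficient points lie above all In/B points for each gene, and for Spag6l, Spag17 and Meig1 RA-deficient replicate 3 lies far above replicates 1 and 2.

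SPAG6 and its near copy belong to the central apparatus, and the row named Spag6l was among the most strongly changed of the set. Spag6l stood at 1.17, 4.84 and 4.35 CPM in In/B replicates 1 to 3, at 104, 51.5 and 37.8 CPM in RA-sufficient PL, and at 0.120, 0.872 and 24.4 CPM in RA-deficient PL. The RA-sufficient libraries were high without exception, and the RA-deficient ones split, with replicates 1 and 2 at 3 and 22 counts and replicate 3 at 559 counts. The row named Spag6 had far fewer reads, at 0.559, 0.416 and 0.678 CPM in In/B, 3.24, 2.73 and 3.53 CPM in RA-sufficient PL and 0.360, 1.11 and 0.612 CPM in RA-deficient PL. Its RA-sufficient libraries lay close together and above the other 6, which overlapped. Replicate 3 of the RA-deficient cells lay between its 2 companions for Spag6, unlike for Spag6l.

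SPAG17 and SPAG16 are partners of SPAG6 in the central apparatus. Spag17 stood at 2.74, 11.6 and 12.7 CPM in In/B, at 161, 60.8 and 39.2 CPM in RA-sufficient PL and at 0.360, 0.872 and 21.7 CPM in RA-deficient PL. As for Spag6l, RA-deficient replicates 1 and 2 lay below every In/B library and replicate 3 above them. Spag16 gave 2.29, 3.02 and 3.62 CPM in In/B, 29.8, 10.0 and 10.5 CPM in RA-sufficient PL, and 3.76, 2.62 and 2.84 CPM in RA-deficient PL. For Spag16 the RA-deficient libraries lay in the range of In/B or just above it, replicate 3 included, and below every RA-sufficient library.

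Hydin, whose loss causes hydrocephalus in mice, was the longest of these transcripts and was detected well in all libraries. Its level was 14.2, 16.8 and 16.7 CPM in In/B, 113, 44.3 and 28.6 CPM in RA-sufficient PL and 14.9, 20.4 and 35.8 CPM in RA-deficient PL. RA-deficient replicate 3 exceeded the lowest RA-sufficient library, so the PL groups overlapped.

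The pair Spef1 and Spef2, named together as sperm flagellar genes, had different patterns. Spef1 stood at 4.25, 3.93 and 4.30 CPM in In/B, at 10.0, 9.09 and 8.91 CPM in RA-sufficient PL and at 1.96, 0.951 and 1.14 CPM in RA-deficient PL. Its RA-sufficient libraries lay above every In/B library, as for 35.6% of all genes tested. The RA-deficient libraries lay below every RA-sufficient one, as for 27.3%, and RA-deficient replicate 3 sat with the others of its group. Spef2 was at 0.783, 2.31 and 2.77 CPM in In/B, 28.5, 10.3 and 6.79 CPM in RA-sufficient PL and 7.36, 7.73 and 5.64 CPM in RA-deficient PL. Both PL groups were above In/B for Spef2, and they overlapped each other.

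Meig1, needed for spermiogenesis, had the highest mean of the set in RA-sufficient PL. It gave 6.04, 17.5 and 15.4 CPM in In/B, 255, 87.5 and 80.2 CPM in RA-sufficient PL, and 2.72, 1.55 and 82.6 CPM in RA-deficient PL. RA-deficient replicate 3 thus reached the level of the lower RA-sufficient libraries, while replicates 1 and 2 were below every In/B library.

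To compare levels between genes, CPM was divided by exon length in kb. In RA-sufficient PL, Meig1 was highest at 128 ± 89.7 CPM per kb (SD, n = 3), followed by Spag17 at 10.3 ± 7.69, Hydin at 3.75 ± 2.71, Spef1 at 3.40 ± 0.214, Spag16 at 3.14 ± 2.12 and Spef2 at 2.13 ± 1.63. The row Spag6l came to 14.1 ± 7.66 or 25.2 ± 13.7 CPM per kb, and the row Spag6 to 0.694 ± 0.0889 or 1.24 ± 0.159, depending on whether the chromosome 16 or the chromosome 2 length is its own. Meig1 was above the others beyond their spread, with 72.8 CPM per kb in its lowest library against 19 in the highest Spag17 library and 40.7 in the highest Spag6l library by the shorter length. From Spag17 down to Spef2, each neighbour in the order overlapped the next in its range over libraries. In In/B, Meig1 was again highest at 11.8 ± 5.53 CPM per kb, followed by Spef1 at 1.51 ± 0.0721, Spag17 at 1.06 ± 0.643, Hydin at 0.964 ± 0.0901, Spag16 at 0.559 ± 0.125 and Spef2 at 0.274 ± 0.146. RA-deficient PL had Meig1 at 26.3 ± 42.2 CPM per kb, Hydin at 1.43 ± 0.655, Spef2 at 0.968 ± 0.156, Spag17 at 0.902 ± 1.44, Spag16 at 0.576 ± 0.114 and Spef1 at 0.491 ± 0.195. The Spag6l row came to 0.758 ± 0.437 or 1.35 ± 0.780 CPM per kb in In/B and to 1.86 ± 3.03 or 3.32 ± 5.42 in RA-deficient PL by the chromosome 16 or 2 length, the latter next after Meig1 by either length. The Spag6 row was lowest in each group by either length. The large SD of Meig1, Spag6l and Spag17 in RA-deficient PL is the gap between replicate 3 and the other libraries.

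The comparison of RA-sufficient PL with In/B asks what changed as type B cells became preleptotene spermatocytes when RA synthesis was allowed to resume. A gene was called when its log2 fold change was beyond 1 in size with an adjusted p under 0.05 in edgeR's quasi-likelihood test, adjusted by Benjamini and Hochberg's method over all genes tested. All 8 central pair genes were called higher in RA-sufficient PL, where 26.1% of the 15001 genes tested were called higher. Their median log2 fold change was 2.79, against 0.04 over all genes, and the groups did not overlap for any of the 8, a pattern that 35.6% of all genes had in this direction. Spag6l rose most, by a log2 fold change of 4.26 (SE 0.554, adjusted p = 0.000223, edgeR's quasi-likelihood test). Meig1 followed at 3.49 (SE 0.543, adjusted p = 0.000584), Spag17 at 3.33 (SE 0.655, adjusted p = 0.00208) and Spef2 at 3.01 (SE 0.635, adjusted p = 0.00302). Spag6 rose by 2.58 (SE 0.428) and Spag16 by 2.54 (SE 0.475). Hydin rose by 2.01 (SE 0.451, adjusted p = 0.00408) and Spef1, the least changed, by 1.22 (SE 0.255, adjusted p = 0.00282).

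A single RA-sufficient library weighed on the size of these differences. RA-sufficient replicate 1 was the highest library of its group for every gene but Spag6: it exceeded the mean of replicates 2 and 3 by 3.33-fold for Spef2, 3.23-fold for Spag17, 3.10-fold for Hydin, 3.04-fold for Meig1, 2.91-fold for Spag16 and 2.33-fold for Spag6l, with a median of 0.978-fold over all genes. For Spef1 and Spag6 the same ratio was 1.11 and 1.04. Without this library all 8 genes were still called higher (25.2% of all genes in that fit), their median was 2.35, and the log2 fold change of Hydin was 1.24.

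**Figure D2:**
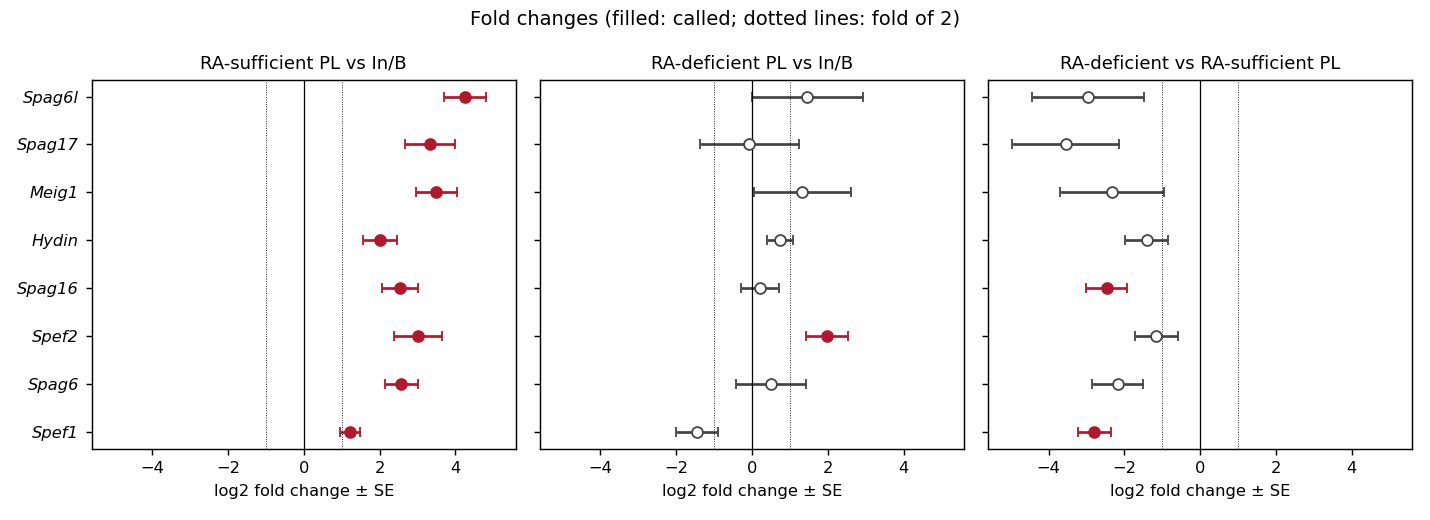
Log2 fold change of each central pair gene in the 3 comparisons, with bars of 1 SE and filled points for called genes. All 8 points are called and above 0 for RA-sufficient PL against In/B, whereas Spef2 is the only call between RA-deficient PL and In/B, and Spag16 and Spef1 are the only calls between the PL groups.

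RA-deficient PL was set against In/B to ask what changed from type B cells under continued inhibitor. Of the 8 genes, Spef2 alone was called, and higher, where 11.4% of the 14877 genes tested were called higher and 11.8% lower. Spef2 rose by a log2 fold change of 1.99 (SE 0.553, adjusted p = 0.0243, edgeR's quasi-likelihood test), and it was also the only one of the set without overlap in that direction, as were 21% of all genes. Its call was lost without In/B replicate 2 (adjusted p = 0.0766), without RA-deficient replicate 1 (0.0584) and without RA-deficient replicate 2 (0.0616), with log2 fold changes of 2.09, 1.92 and 1.88. Spef1 was lower in all 3 RA-deficient libraries, at a log2 fold change of -1.46 (SE 0.552), which missed the threshold (adjusted p = 0.0737) but was called at -1.85 without RA-deficient replicate 1 (adjusted p = 0.0451). Hydin was at 0.74 (SE 0.333), Spag6 at 0.50 (SE 0.922) and Spag16 at 0.21 (SE 0.494). For Spag6l, Meig1 and Spag17 the log2 fold changes of 1.46, 1.33 and -0.07 had SEs of 1.47, 1.28 and 1.30, so no direction could be read from them.

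Leaving out RA-deficient replicate 3 changed this picture for the 3 genes it carried. That library exceeded the mean of replicates 1 and 2 by 49.3-fold for Spag6l, 38.7-fold for Meig1 and 35.3-fold for Spag17, and by 2.03-fold for Hydin, with 4.24% of all genes beyond 5-fold. It was at 0.892 of that mean for Spag16, 0.833 for Spag6, 0.781 for Spef1 and 0.748 for Spef2. Without it, Meig1 and Spag17 were called lower in RA-deficient PL than in In/B, by log2 fold changes of -2.42 (SE 0.532, adjusted p = 0.00752, edgeR's quasi-likelihood test) and -3.68 (SE 0.795, adjusted p = 0.00702), and Spag6l was at -2.61 (SE 0.998, adjusted p = 0.0662). Spef2 was again called higher, at 2.12, while Hydin was at 0.32, Spag16 at 0.27, Spag6 at 0.58 and Spef1 at -1.34, none of these called. In that fit 11.5% of 15328 genes were called higher and 14.5% lower.

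The PL groups, of the same age and differing in continued WIN 18,446, were compared to ask what changed when RA synthesis stayed blocked in cells of that age. All 8 genes had a negative log2 fold change in RA-deficient against RA-sufficient PL, with a median of -2.40 against -0.09 over all genes, and 2 of them were called lower, where 11% of 15352 genes tested were called lower. Spef1 had a log2 fold change of -2.79 (SE 0.444, adjusted p = 0.00605, edgeR's quasi-likelihood test) and Spag16 of -2.47 (SE 0.537, adjusted p = 0.0179). Spag6, also free of overlap, was at -2.18 (SE 0.683) and just missed the threshold (adjusted p = 0.0566). Spag17 was at -3.55 (SE 1.41), Spag6l at -2.96 (SE 1.47) and Meig1 at -2.32 (SE 1.37), with adjusted p of 0.11, 0.185 and 0.26 in that test. Hydin was at -1.42 (SE 0.567) and Spef2 at -1.17 (SE 0.565), neither of them called. The groups did not overlap for 5 of the 8 genes, as for 27.3% of all genes in this direction.

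Without RA-deficient replicate 3, 7 of the 8 genes were called lower in RA-deficient PL, where 20.4% of 15799 genes were. Spag17 was then at a log2 fold change of -7.12 (SE 0.837, adjusted p = 0.000756, edgeR's quasi-likelihood test), Spag6l at -6.99 (SE 0.783) and Meig1 at -6.03 (SE 0.687). Spef1 was at -2.67, Spag16 at -2.38 and Spag6 at -2.09 (adjusted p = 0.0476). Hydin was at -1.80 (SE 0.556, adjusted p = 0.0348), and Spef2, the exception, at -0.995 (SE 0.588, adjusted p = 0.215). Spag16 lost its call without RA-deficient replicate 2, at -2.33 (adjusted p = 0.0525). Leaving out RA-sufficient replicate 1 moved Hydin to -0.61, Spef2 to -0.29, Meig1 to -1.52 and Spag16 to -1.71, with Spag16 still called.

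**Figure D3:**
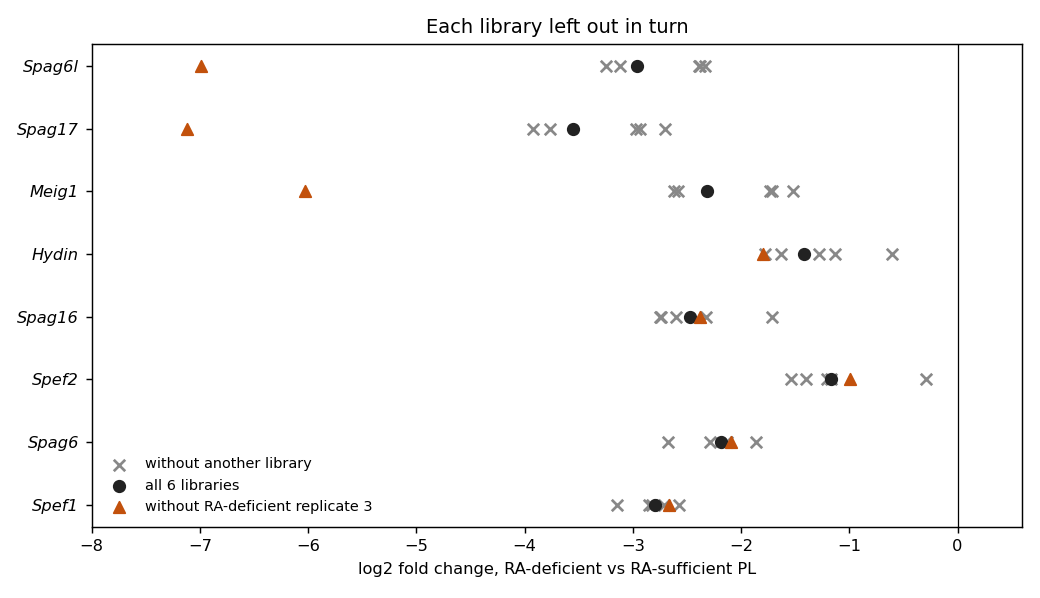
Log2 fold change of each central pair gene between the PL groups with all 6 libraries (black), without RA-deficient replicate 3 (orange triangles) and without each of the other libraries (grey crosses). The values of Spag6l, Spag17 and Meig1 lie at -6.99, -7.12 and -6.03 without RA-deficient replicate 3, and every value of the 8 genes stays below 0.

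A wider list of central apparatus and partner genes held 12 names, of which 11 were in the table. In RA-sufficient PL against In/B, 9 of the 11 were called higher, at a median of 2.33 on the log2 scale, beside 26.1% of all genes. Kif9, a kinesin of the central apparatus, rose from 9.56, 13.8 and 12.9 CPM to 99.2, 68.3 and 63.9 CPM, a log2 fold change of 2.73 (adjusted p = 2.92e-05, edgeR's quasi-likelihood test). Camsap3, which binds microtubule minus ends, rose by 1.41. In RA-deficient PL against In/B, 3 of the 11 were called higher, with a median of 0.77, beside 11.4% of all genes, among them Cfap54 at 1.81. Kif9 in RA-deficient PL stood at 13.3, 6.42 and 42.8 CPM, so replicate 3 was again high. Between the PL groups 3 of the 11 were called lower, with a median of -1.60, beside 11% of all genes: Mycbpap at -2.22, Cfap69 at -1.85 and Camsap3 at -1.41. Without RA-deficient replicate 3 this became 9 of 11, with a median of -2.40, beside 20.4% of all genes. In the comparison with In/B without that library, 3 were called higher and 1 lower, beside 11.5% and 14.5% of all genes.

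**Figure D4:**
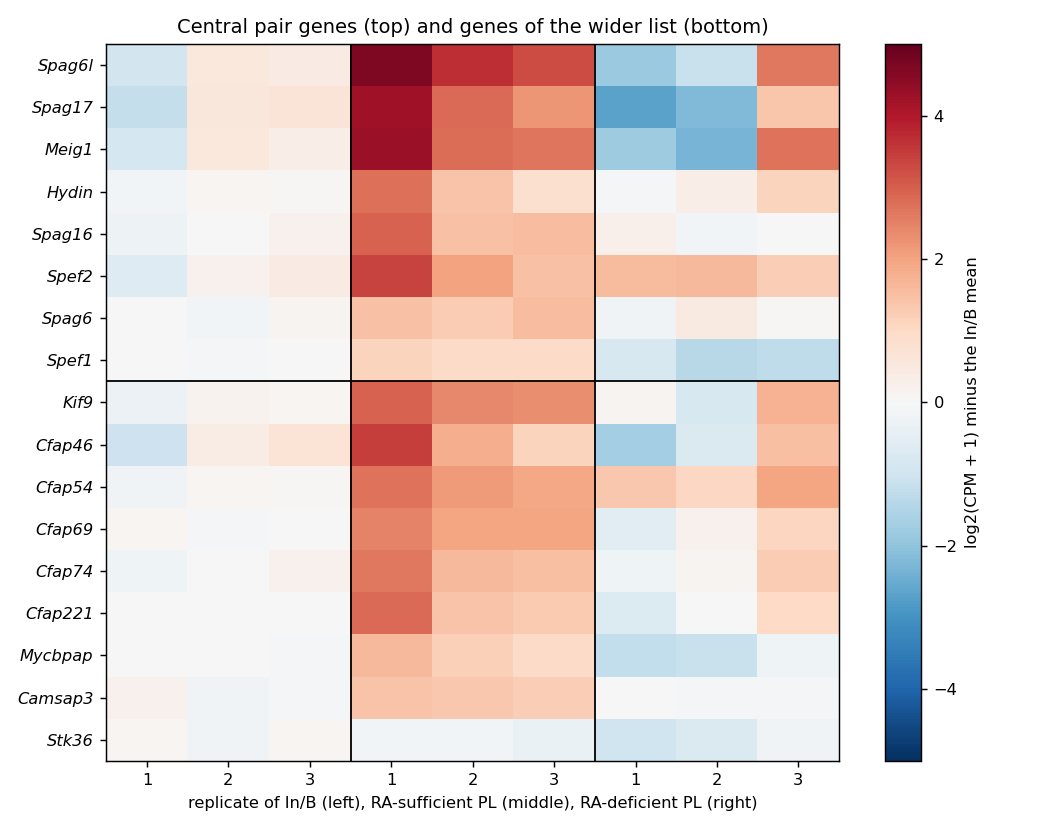
Level of the 8 central pair genes (top) and 9 genes of the wider list (bottom) in each library, as log2(CPM + 1) minus the In/B mean of the gene, from blue (lower) to red (higher). RA-sufficient replicate 1 holds the deepest red for most rows, and RA-deficient replicate 3 is red at Spag6l, Spag17 and Meig1, where replicates 1 and 2 are blue.

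Among 12 genes for known regulators of ciliary and spermatocyte transcription, 6 of the 10 tested were called higher in RA-sufficient PL than in In/B, beside 26.1% of all genes, and 5 of the 11 tested in RA-deficient PL, beside 11.4%. Without RA-deficient replicate 3 the latter became 5 higher and 1 lower, Tcfl5 at -1.04, beside 11.5% and 14.5% of all genes. Mybl1, which encodes the regulator A-MYB of pachytene cells, stood at 7.10, 16.2 and 16.5 CPM in In/B, 166, 194 and 174 CPM in RA-sufficient PL and 124, 117 and 226 CPM in RA-deficient PL. It was high in both PL groups, with a log2 fold change between them of -0.20 (adjusted p = 0.601, edgeR's quasi-likelihood test), or -0.56 (adjusted p = 0.00954) without RA-deficient replicate 3, short of the fold needed for a call. Rfx2, an RFX factor needed for spermiogenesis, was at 32.9, 37.6 and 39.2 CPM in In/B, 100, 73.7 and 78.0 CPM in RA-sufficient PL and 39.6, 36.0 and 67.9 CPM in RA-deficient PL. Its RA-sufficient libraries were the highest, and RA-deficient replicate 3 again lay above replicates 1 and 2. Rfx2 was called higher in RA-sufficient PL than in In/B, at 1.25, and was at -0.82 (adjusted p = 0.072) between the PL groups. Without RA-deficient replicate 3, Rfx2 was called lower in RA-deficient PL, at -1.14 (adjusted p = 0.00259, edgeR's quasi-likelihood test). Rfx1 was the only regulator called between the PL groups with all libraries and was higher in RA-deficient PL (4.47% of all genes were), at 1.41 (adjusted p = 0.00397), with 151, 145 and 106 CPM against 39.8, 52.8 and 59.3 CPM. Without RA-deficient replicate 3, Rfx1, Mcidas and Ccno were called higher in RA-deficient PL and Rfx2 and Rfx4 lower, beside 8.01% and 20.4% of all genes. Tcfl5, a further regulator of spermatocytes, ranged from 41.5 to 108 CPM over all libraries.

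Some lists of markers of other cells moved with the central pair genes, and others did not. The 8 pachytene genes summed to 163, 296 and 277 CPM in In/B, 2093, 964 and 1003 CPM in RA-sufficient PL and 570, 653 and 1227 CPM in RA-deficient PL, and the 4 highest sums were in the same libraries as the 4 highest central pair sums. Between the PL groups 7 of the 8 pachytene genes had a negative log2 fold change, at a median of -3.41, but 0 were called with all libraries. Leaving out RA-deficient replicate 3 gave 7 called lower, beside 20.4% of all genes. Ldhc, the lactate dehydrogenase of meiotic and later germ cells, ran at 562, 183 and 171 CPM in RA-sufficient PL and at 0.800, 1.74 and 89.8 CPM in RA-deficient PL. The 7 Sertoli cell markers summed to between 66.3 and 342 CPM in In/B, 2789 and 3618 in RA-sufficient PL and 286 and 503 in RA-deficient PL. All 7 of them were called higher in RA-sufficient PL than in In/B (median log2 fold change 3.85), beside 26.1% of all genes. All 7 were called lower in RA-deficient than RA-sufficient PL (median -2.84), beside 11% of all genes. The 7 were also called lower there without RA-deficient replicate 3 (median -3.11), beside 20.4% of all genes. Among the germ cell genes, Uchl1 was called lower in RA-sufficient PL than in In/B, at -2.38, as were 2895 of 15001 genes. Uchl1, whose promoter controls the EGFP, was called higher in RA-deficient than RA-sufficient PL, at 1.56, beside 4.47% of all genes. Ddx4 and Dazl were called in neither comparison. Of the 5 genes of differentiating spermatogonia, Kit, Dmrt1 and Sohlh1 were called lower in RA-sufficient PL than in In/B, where 2895 of 15001 genes were. These 3 and Sohlh2 were called higher in RA-deficient than RA-sufficient PL, where 4.47% of all genes were. Each was lowest in replicate 3 among the RA-deficient libraries. Kit overlapped between the PL groups, at 561, 521 and 20.3 CPM in RA-deficient PL and 41.0, 32.8 and 20.2 CPM in RA-sufficient PL. Dmrt1 was at 460, 485 and 111 CPM and Sohlh1 at 60.8, 65.2 and 16.3 CPM in RA-deficient PL. By these calls Kit, Dmrt1 and Sohlh1 moved opposite to the central pair genes. Sohlh2 had the same directions, but its log2 fold change from In/B to RA-sufficient PL, -0.725, was too small for a call. Stra8, also in the list, was called in neither comparison. It was at 0.97 from In/B to RA-sufficient PL, the direction of the central pair genes. Between the PL groups it was at 0.22, against their direction. Spermatid genes, 10 in the list, summed to 12.4 to 14.4 CPM in In/B, 19.7 to 28.1 in RA-sufficient PL and 11.2 to 23.4 in RA-deficient PL, with Tnp1 at no more than 12 counts and Prm2 at no more than 1. Leydig cell genes summed to 7.44, 13.0 and 10.7 CPM in In/B, 30.8, 29.65 and 29.8 CPM in RA-sufficient PL and 14.4, 9.9 and 16.75 CPM in RA-deficient PL. The 3 of them tested were called higher in RA-sufficient PL than in In/B, beside 26.1% of all genes. Between the PL groups 1 of the 3 was called lower, beside 11% of all genes. The 4 peritubular and stromal genes summed to between 35.2 and 88.3 CPM, lowest in RA-sufficient PL, a sum made up mostly of Col1a1 in the other groups. The peritubular marker Acta2 instead stood at 17.2, 6.91 and 8.47 CPM in RA-sufficient PL, at most 1.25 CPM in In/B, and 1.96, 0.832 and 5.07 CPM in RA-deficient PL, and was called higher in RA-sufficient PL than in In/B, at 3.67. The 5 genes of multiciliated cells, which also build a central pair, did not move together. Ccdc67 stood at 6.92, 2.85 and 3.75 CPM in RA-sufficient PL, at most 0.491 CPM in In/B, and 0, 0 and 0.612 CPM in RA-deficient PL, and it was called higher in RA-sufficient PL than in In/B, at 3.75. Foxj1 was called higher there too, at 1.10. Mcidas and Ccno were highest in RA-deficient PL replicate 1, at 7.60 and 15.0 CPM, and Tubb4b, the bulk of the list's sum, was lowest in RA-sufficient PL at 324 to 360 CPM. Macrophage and blood genes summed to at most 3.79 CPM, with Hbb-b1 at 0 counts in every library. The part of these cells in the levels of the central pair genes was not tested. In sorted bulk cells, fewer cells that make a transcript and less of it per cell cannot be told apart.

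**Figure D5:**
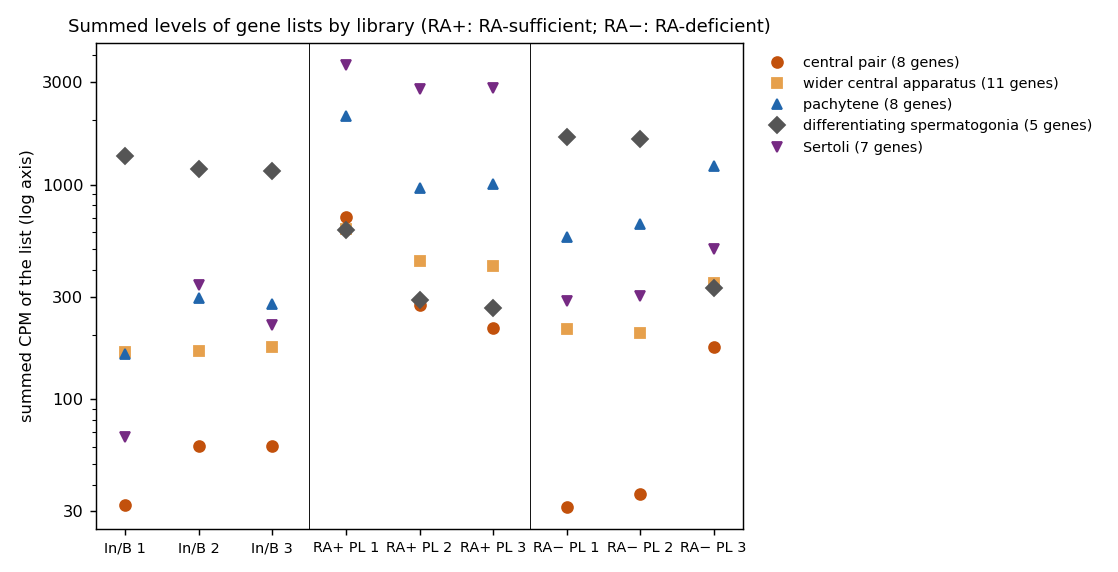
Summed CPM of the central pair genes, of the wider central apparatus list and of marker lists in the 9 libraries, on a logarithmic axis. The central pair sum is highest in the 3 RA-sufficient libraries, and the pachytene and Sertoli cell sums are high there too.

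The genes most like the mean pattern of the central pair genes over the 9 libraries were Pebp4, Cd55b, Asrgl1, 1700017D01Rik and 4933409G03Rik. Their Pearson r with that mean on log2(CPM + 1) ran from 0.9946 to 0.9976, among 15828 genes. This r rests on 9 libraries in 3 groups that share their treatment, and it describes likeness of pattern only. Within the set, Spag6l, Spag17 and Meig1 were close: Meig1 ranked 109 and Spag17 142 among 15835 genes by likeness to Spag6l, and Spag6l ranked 53 and Spag17 81 by likeness to Meig1. Spef2 was least like them, at rank 3837 for Spag6l and 4228 for Meig1.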

How the data were processed

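Polyadenylated RNA from 9 libraries of sorted testis cells was sequenced by the authors, who deposited raw counts of reads per gene, with no normalization, for 24505 genes. Per the labels and the study's methods, reads were trimmed with cutadapt 1.9, aligned to mm9 with STAR 2.5.2b and counted with featureCounts; the annotation and the use of strand are not given in the sources used here. All columns matched a sample by name, and 0 were unused.

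The genes and lists were chosen with earlier results of these data known. Pairs of groups, 3 libraries each, were compared with edgeR 4.0.16 in R 4.3.3 (TMM, filterByExpr, quasi-likelihood test, Benjamini-Hochberg adjustment). The SE of a log2 fold change is its size divided by the square root of F. CPM used TMM factors over 9 libraries. The code was tested on simulated data. Alternatives were other scalings, low-count filters, a joint fit, DESeq2 1.42.0, a replicate block, leaving out each library, and the adjusted p alone. Named in the text were all central pair genes; of the wider list every called gene up to 5, otherwise the 4 with the highest mean CPM, of which some are not reported here; the 4 regulators with the highest mean CPM; and the 5 genes most like the mean of the set. Coordinates are from GENCODE M1, and promoters from RefSeq GRCm38.p6. Counting error is large for Spag6, at 9 to 80 counts per library, and for Spag6l and Spag17 in RA-deficient replicates 1 and 2, at 3 to 22.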

Additional observations from a re-analysis of the deposited data

Results flagged for a closer look

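The RA-deficient against RA-sufficient comparison is itself the test of a difference between the changes of both PL groups from In/B, which share the In/B libraries. By that test, with edgeR's quasi-likelihood test, the change differed for Spef1 (log2 difference -2.79, adjusted p = 0.00605) and Spag16 (log2 difference -2.47, adjusted p = 0.0179). Spef1 had changed by 1.22 in RA-sufficient PL and was at -1.46 in RA-deficient PL, and Spag16 had changed by 2.54 and was at 0.21. The adjusted p of Spag16 without RA-deficient replicate 2 was 0.0525.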

How the results depend on the processing

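For RA-sufficient PL against In/B, all 8 central pair genes were called higher under every alternative but the filter at a mean of 50 counts, where Spag6 was not tested. For RA-deficient PL against In/B, where 1 gene was called, 2 were called with library size only, with the filter at a mean of 50 counts, with all 9 libraries in one fit and with DESeq2, Spef1 being the addition. Over all genes, 3885 of 14877, 3310 of 12101, 3852 of 14877 and 3816 of 14877 were called in these fits, in that order, against 3446 of 14877. Leaving out 1 library gave 0 to 3 calls there, with Spef2 not called in 3 of the fits and Spef1 the single call without RA-deficient replicate 1; the count of 0 arose without In/B replicate 2 and without RA-deficient replicate 2, in edgeR fits with 1 gene at an unadjusted p under 0.05 each. Directions that turned in this comparison were those of Spag16 with library size only (-0.10), and, with single libraries left out, of Spag17 (range -3.68 to 0.45, above 0 without In/B replicate 2 or 3 or RA-deficient replicate 1 or 2), Spag6 (-0.051 without RA-deficient replicate 2, up to 0.79), Spag6l (-2.61 without RA-deficient replicate 3, up to 1.99) and Meig1 (-2.42 without RA-deficient replicate 3, up to 1.84). Between the PL groups, DESeq2 called 4 of the 8 genes and leaving out a library gave 1 to 7. For the wider list the joint fit and DESeq2 each called 5 and leaving out a library gave 2 to 9. The shares of all genes called by DESeq2 and the joint fit between the PL groups are not given here, so these counts cannot be set against them. Calls over all genes there ran from 1190 to 4484 when a library was left out, and the adjusted p alone gave 3629, or 5459 for RA-deficient PL against In/B. The cause was not tested beyond the library or setting named. Deviations of same-numbered libraries from their group means correlated at -0.255 to 0.122. Differently numbered libraries were not compared in this way, so whether numbers pair the libraries was not settled. With the replicate block 6373, 3208 and 1765 genes were called in the 3 comparisons, and Spag6l (-0.95) and Meig1 (-0.63) turned in RA-deficient PL against In/B. Of the log2 fold changes of single genes under alternatives, 280 kept direction and side of the threshold, 15 passed it, 4 lost it and 10 turned.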
